A study of Arabidopsis thaliana with 3 samples.

Results

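The 32 genes described here make, load, protect or act on small RNAs in Arabidopsis, or methylate DNA with or without their guidance. They were chosen by locus code, and 31 of the 32 were measured among 24656 genes with a named probe. HESO1, which tails unprotected microRNAs with uridine, is not analysed here. On each of 3 two-colour arrays, rosette RNA of lsm1a lsm1b double mutant plants was hybridised together with that of Col-0, the wild-type control, so every value is a log2 ratio within an array, averaged over the probes of a gene. The mutant RNA carried Cy3 on arrays 1 and 3 and Cy5 on array 2, and the arrays are labelled biological replicates. Both genotypes share the same growth labels, which disagree among themselves: the characteristics give plants 2 weeks old and the growth protocol 22 °C with 16 h of light and 8 h of dark, while the descriptions give plants 3 weeks old that spent 1 day at 4 °C. The mutant alleles and the number of plants behind each RNA were not given in the sources used here. Ratios are read as mutant over wild type. That reading is likely rather than certain, and with the opposite one every sign below turns while sizes and p-values stay.

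RNA silencing in plants starts from long or hairpin double-stranded RNA, which Dicer-like enzymes cut into small RNAs that Argonaute proteins carry to matching transcripts or loci. In the microRNA branch, DCL1 and its partners HYL1 and SERRATE cut hairpins, HEN1 methylates the products, HASTY promotes their export and function, and AGO1 slices or represses the targets. In the post-transcriptional branch, SGS3 and RDR6 turn cleaved or aberrant transcripts into double-stranded RNA for DCL4 and DCL2. In the nuclear branch, RNA polymerase IV, RDR2 and DCL3 make small RNAs that guide AGO4 and the methyltransferase DRM2 to polymerase V transcripts. LSM1A and LSM1B encode the LSM1 subunit of the cytoplasmic LSM ring, which promotes decapping and decay of messenger RNA. The comparison asks how transcript levels differ when this subunit is lost, and decapping and silencing can draw on the same transcripts.

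SGS3 (AT5G23570), which stabilises transcripts that are copied into double-stranded RNA, was the member that rose, and 30 of the 31 measured members did not pass the test. Its ratio was 1.02 on array 1, 1.22 on array 2 and 0.92 on array 3, so it was high on every array whichever dye the mutant carried. The mean log2 ratio was 1.05 ± 0.15 (SD, n = 3 arrays), which is 2.08-fold higher in lsm1a lsm1b, with a limma adjusted p of 0.0412 and a 95% interval of 0.79 to 1.32. Over all genes, 1.21% passed the same threshold of 0.05 (298 of 24656), 0.625% higher and 0.584% lower in the mutant, against 1 of 31 members (3.23%), a difference that was not tested. In bulk rosette RNA, a ratio cannot tell a change in RNA per cell from a change in the share of cells that express a gene.

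SGS3 ranked 314 of 24656 genes by mean ratio, and 95 of 154 among the genes that passed as higher, whose median change was 2.24-fold. With the opposite reading of the ratio these are ranks from the lowest mean, and among the genes that passed as lower. The call rests on all 3 arrays, because 0 of the 24656 genes passed in limma when any 1 array was left out (2543 to 7326 had an unadjusted p under 0.05), where SGS3 had a limma adjusted p of 0.296, 0.0737 and 0.225 without array 1, 2 and 3. The call was also lost with a term for dye orientation (limma adjusted p = 0.0706) and with the arrays scaled to equal spread (0.0514). Its mean stayed between 0.97 and 1.12 in all of these fits. SGS3 was measured by 1 probe, so no other probe of the gene could be compared with it.

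**Figure D1:**
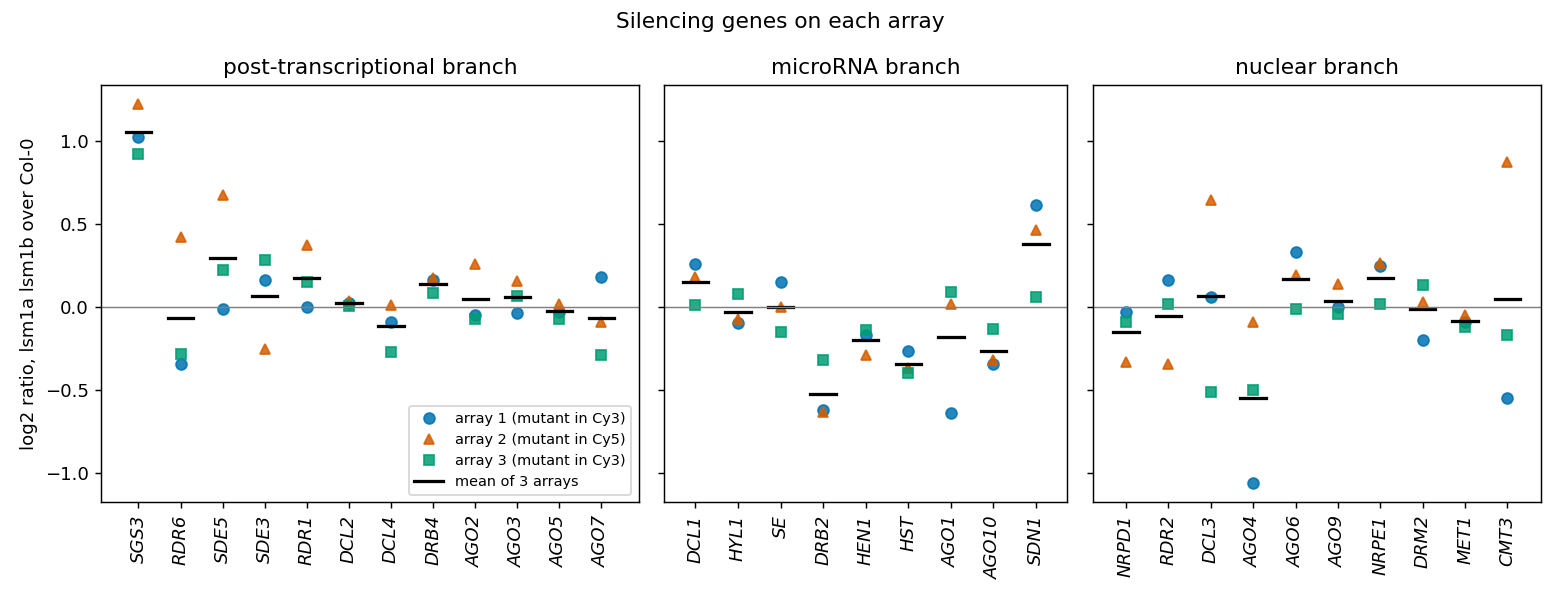
Log2 ratio (lsm1a lsm1b over Col-0, vertical axis) of the 31 measured silencing genes on each of the 3 arrays, grouped by branch. Symbols are arrays and black bars are means; SGS3 lies between 0.92 and 1.22, and the other means lie between -0.55 and 0.38.

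RDR6, SDE5 and SDE3, which act in the same pathway as SGS3, did not pass the test, which 1.21% of all genes passed. RDR6 (AT3G49500), the RNA-dependent RNA polymerase that SGS3 serves, stood at -0.34, 0.42 and -0.28 on arrays 1, 2 and 3, a mean of -0.07 ± 0.42 (limma adjusted p = 0.929). It lay above 0 on the dye-swapped array and below 0 on the others. SDE5, a putative RNA export factor needed in the same pathway, stood at -0.01, 0.67 and 0.22 (mean 0.29 ± 0.35), and SDE3, an RNA helicase, at 0.16, -0.25 and 0.28 (0.06 ± 0.28). Within each array SGS3 exceeded RDR6 by 1.36, 0.80 and 1.20, SDE5 by 1.03, 0.55 and 0.70, and SDE3 by 0.86, 1.47 and 0.64. SGS3 therefore lay above all 3 of these genes on every array, by at least 0.55 on the log2 scale.

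The enzymes that cut the double-stranded RNA made with SGS3 lay near 0. DCL4 (AT5G20320), which makes trans-acting small interfering RNAs, had a mean of -0.12 ± 0.14, and DCL2, which makes a longer class of small RNAs, one of 0.02 ± 0.02 over 3 probes. DRB4, the double-stranded RNA binding partner of DCL4, stood at 0.16, 0.175 and 0.085 on arrays 1, 2 and 3, above 0 throughout but small (mean 0.14 ± 0.05, limma adjusted p = 0.452). SGS3 exceeded DCL4 by 1.11, 1.21 and 1.19 on the 3 arrays, the most even of the differences computed (mean 1.17 ± 0.05).

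Of the Argonaute genes placed in the post-transcriptional branch, none passed the test, which 1.21% of all genes passed. AGO2 (AT1G31280), which acts in antiviral defence, stood at -0.05, 0.26 and -0.07 (mean 0.05 ± 0.19), and its tandem neighbour AGO3 had a mean of 0.06 ± 0.09. AGO7, the carrier of the microRNA that starts trans-acting small RNA production from TAS3, had a mean of -0.07 ± 0.24, and AGO5, known mainly from reproductive tissue, one of -0.03 ± 0.05. RDR1, an antiviral polymerase known to respond to salicylic acid, stood at 0.00, 0.37 and 0.15 (0.17 ± 0.19, limma adjusted p = 0.481).

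Salicylic acid markers had high ratios on the same arrays, and their part in the values of AGO2 and RDR1 was not tested. Of 9 measured markers, 8 were above 0 on all 3 arrays (88.9%, against 19.7% of all genes), and PR2 was not (mean -0.04 ± 0.22). The list median was 0.56, 1.41 and 0.90 on arrays 1, 2 and 3. In limma 1 of the 9 passed (11.1%, against 1.21% of all genes). ICS1, the main gene of stress-induced salicylic acid synthesis, passed over all genes (0.97 ± 0.16, limma adjusted p = 0.0465), a call lost without any 1 array, with the dye term (0.0706), with equal scaling (0.062) and with robust eBayes (0.0502). RDR1 and AGO2 had their highest ratio on array 2, as did PR1 (1.75, 5.71 and 2.11). This was not particular to them, since the median of the post-transcriptional branch was also highest there (-0.005, 0.165 and 0.036). PR1 itself did not pass (mean 3.19 ± 2.19, limma adjusted p = 0.146).

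The microRNA branch was the one whose median lay below 0 on every array. Its 9 measured members had medians of -0.17, -0.075 and -0.13 on arrays 1, 2 and 3 and a median mean of -0.18, against 0.01 over all genes. None of the 9 passed in limma, against 1.21% of all genes. Unadjusted p was under 0.05 for 4 (44.4%, against 20.1% of all genes), 1 higher (11.1% against 10.6%) and 3 lower (33.3% against 9.48%). Of the 9, 6 had a mean below 0, 4 were below 0 on all 3 arrays and 2 were above 0 on all 3. Over all genes, 48.2% had a mean below 0, 18% were below 0 on all 3 arrays and 19.7% above. Without array 1 the branch median was -0.075, and AGO1, the member at the median, was low on array 1 alone.

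DRB2 (AT2G28380), a double-stranded RNA binding protein that takes part in microRNA production, had the lowest mean of the branch. It stood at -0.62, -0.63 and -0.32 on arrays 1, 2 and 3, below 0 on each (mean -0.52 ± 0.18, limma adjusted p = 0.0937). HASTY (HST, AT3G05040) stood at -0.265, -0.365 and -0.395, with a mean of -0.34 ± 0.07 (limma adjusted p = 0.129). It was the most even of the lower members of the branch, but only after its 2 probes were averaged. Their means lay 0.10 apart, yet they disagreed from array to array, with -0.15, -0.68 and -0.35 against -0.38, -0.05 and -0.44. AGO10 (AT5G43810), which sequesters a leaf-polarity microRNA away from AGO1 in meristems, stood at -0.34, -0.32 and -0.13 (mean -0.26 ± 0.12, limma adjusted p = 0.222). HEN1, the small RNA methyltransferase, had a mean of -0.20 ± 0.08 and was likewise below 0 on each array. The 95% intervals of DRB2, HST and AGO10 excluded 0 when taken singly, and none held after adjustment over all genes.

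SDN1 (AT3G50100), an exonuclease that degrades mature microRNAs, was the highest of the branch at 0.61, 0.46 and 0.06. All 3 values were above 0, with array 3 close to it, and the mean of 0.38 ± 0.28 did not pass (limma adjusted p = 0.234). The hairpin-cutting core lay close to 0, with DCL1 at 0.15 ± 0.13, HYL1 at -0.03 ± 0.10 and SERRATE (SE) at 0.00 ± 0.15. The transcripts of DCL1 and AGO1 are themselves microRNA targets. AGO1 (AT1G48410) stood at -0.64, 0.02 and 0.09, low on array 1 alone, and its 2 probes gave -0.35 and -0.93 on that array.

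**Figure D2:**
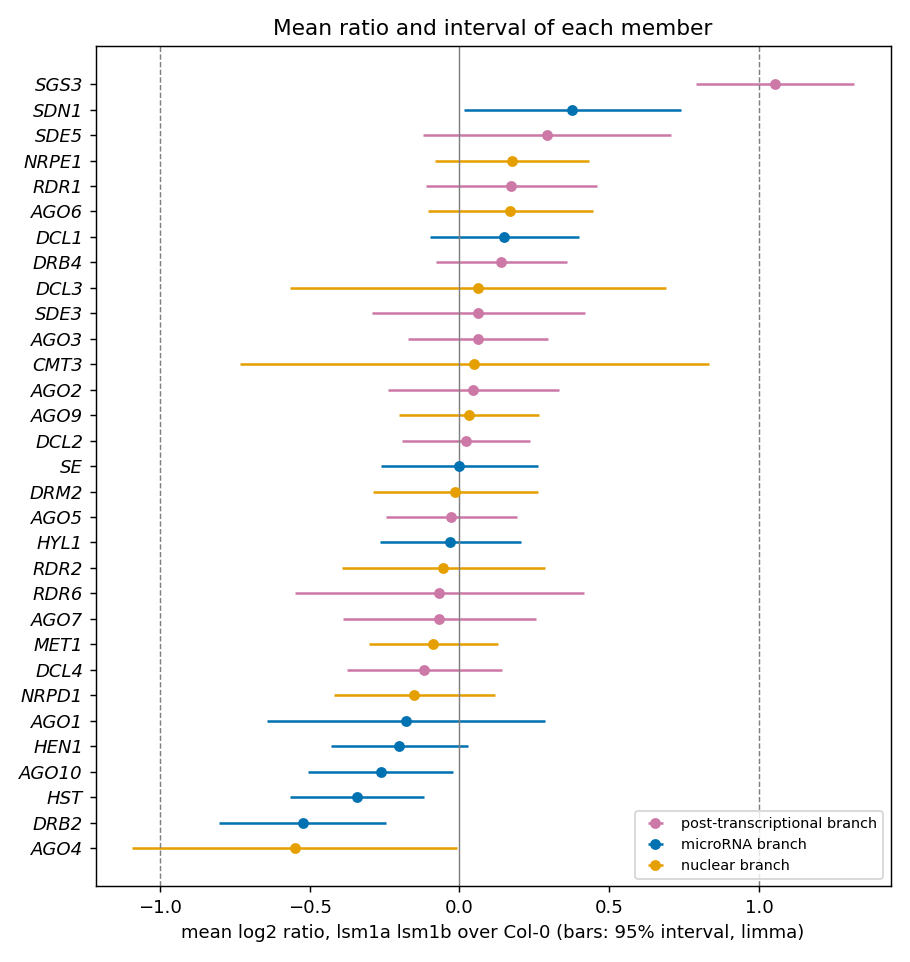
Mean log2 ratio over 3 arrays (points) with limma's 95% interval (bars) for the 31 measured members, coloured by branch and ordered by mean; dashed lines mark 1 and -1, a 2-fold change. The interval of SGS3 runs from 0.79 to 1.32 and that of AGO4, the widest to the left, from -1.09 to -0.01.

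None of the 10 nuclear members passed in limma, against 1.21% of all genes. For 1 of them (AGO4) the unadjusted p was under 0.05 (10%, against 20.1% of all genes). The branch medians of -0.015, 0.085 and -0.065 on arrays 1, 2 and 3 lay on both sides of 0. NRPD1, the largest subunit of polymerase IV, had a mean of -0.15 ± 0.16 and was below 0 on each array. RDR2, its partner polymerase, had a mean of -0.05 ± 0.26. DCL3 (AT3G43920), which cuts the products of RDR2, stood at 0.06, 0.64 and -0.51, so its mean of 0.06 ± 0.58 combines values of opposite sign. NRPE1, the largest subunit of polymerase V, had a mean of 0.18 ± 0.14, with probe means of 0.45 and -0.10.

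AGO4 (AT2G27040), the main Argonaute of RNA-directed DNA methylation, had the lowest mean of the members over the 3 arrays, but not in every fit. It stood at -1.06, -0.09 and -0.50 on arrays 1, 2 and 3, below 0 on each but spread over nearly 1 unit (mean -0.55 ± 0.49, limma adjusted p = 0.245). Without array 1 its mean was -0.295, above those of DRB2 (-0.475) and HST (-0.38), and DRB2 was also lower than AGO4 without array 3 (-0.625 against -0.575) and with the dye term (-0.55 against -0.435). Its relatives AGO6 and AGO9 had means of 0.17 ± 0.17 and 0.03 ± 0.09. AGO4 thus lay below both on every array, and its 95% interval of -1.09 to -0.01 was the one among the uncalled members that reached a 2-fold change.

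The means of the 3 DNA methyltransferases lay within 0.1 of 0. DRM2, which methylates DNA in every sequence context at the end of the pathway, had a mean of -0.01 ± 0.17, and MET1, which maintains CG methylation, stood at -0.09, -0.05 and -0.12 (-0.09 ± 0.04). CMT3 (AT1G69770), which maintains CHG methylation, stood at -0.55, 0.87 and -0.17, the widest spread of any member (0.05 ± 0.74). The low and high values of CMT3 and DCL3 cancel in the mean, and for CMT3 the dye-swapped array differed from the mean of the others by 1.23.

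Over all 31 members the ratios resembled those of genes in general. Unadjusted p was under 0.05 for 6 members (19.4%), which were SGS3, DRB2, HST, AGO10, SDN1 and AGO4, against 20.1% of all genes. The same sign on all 3 arrays was found for 13 members (41.9%) against 37.6%, and the median absolute mean ratio was 0.12 against 0.13. Arrays 1 and 3 fell on one side of 0 and array 2 on the other for 7 members (22.6%), among them RDR6, AGO2 and CMT3, against 32.4% of all genes. Dye orientation and replicate cannot be told apart on array 2, which is the only array with the dyes swapped.

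The intervals bound what could have been missed. For 29 of 31 members (93.5%) the 95% interval lay within a 2-fold change either way, as it did for 89.7% of all genes, and for 20 (64.5%) it lay within 0.5 on the log2 scale, against 57% of all genes. The exceptions to the wider bound were SGS3 and AGO4. A miss of the threshold does not show that a transcript was equal in both genotypes, and the intervals were not adjusted for the number of genes.

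**Figure D3:**
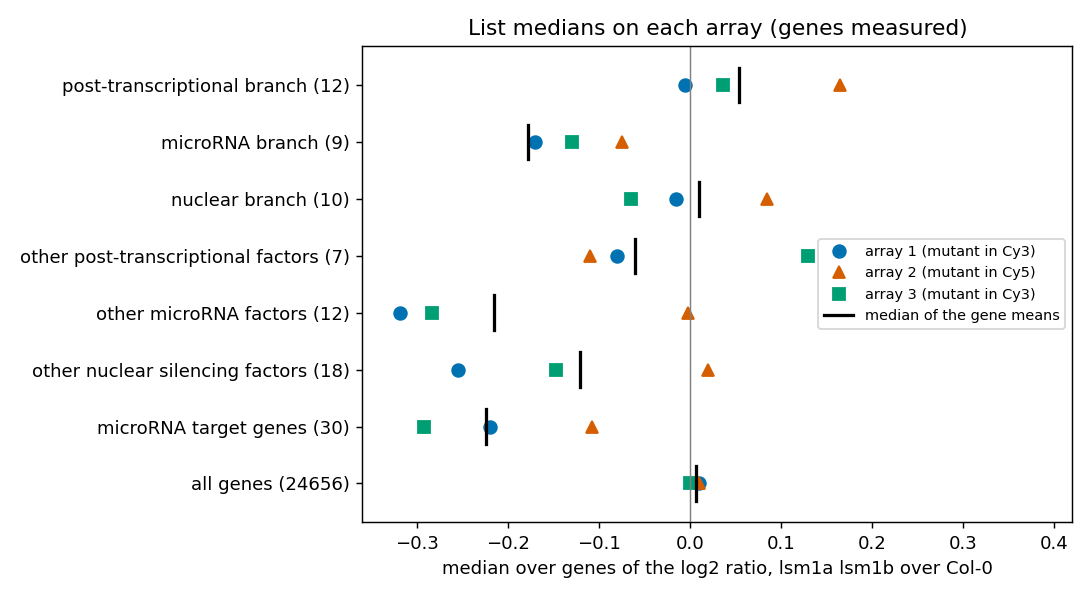
Median log2 ratio over the genes of each list (horizontal axis, lsm1a lsm1b over Col-0) on each array, with the number of genes measured in brackets; black bars are medians of the gene means. The microRNA branch lies at -0.17, -0.075 and -0.13, and all genes at 0.01, 0.01 and 0.00.

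Further genes of the same pathways, listed by pathway, gave 0 calls in limma among 37 measured, against 1.21% of all genes. An unadjusted p under 0.05 was found for 12 of them (32.4%), against 20.1% of all genes. Among 12 further microRNA factors 8 had a mean below 0 (66.7%, against 48.2% of all genes). On all 3 arrays, 5 were below 0 (41.7% against 18%), but the median was -0.32 and -0.28 on arrays 1 and 3 and 0.00 on array 2. A mean below 0 was as frequent among the 18 further nuclear genes (12, 66.7%). It was found for 4 of the 7 further post-transcriptional genes (57.1%). TGH and RACK1A, which promote microRNA processing and AGO1 function, stood at -0.38 ± 0.23 and -0.37 ± 0.18. CBP20, of the nuclear cap-binding complex, had a mean of 0.27 ± 0.17 with 3 probes between 0.45 and 0.54 and the remaining one at -0.43.

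Of the 7 further post-transcriptional genes, RDR5 stood at 0.88, 0.96 and 0.13 (0.66 ± 0.46, limma adjusted p = 0.171) and RDR3 of the same tandem cluster at -1.19, -0.74 and 0.34 (-0.53 ± 0.79). The ratios of this pair lay on opposite sides of 0 on arrays 1 and 2. The double-stranded RNA binding family also lay on both sides of 0: DRB2 and DRB3 had means of -0.52 and -0.46, DRB5 one of 0.01, DRB4 one of 0.14 and HYL1 one of -0.03. The 4 Dicer-like genes lay between -0.12 and 0.15, and the 10 Argonaute genes, AGO8 included, between -0.55 and 0.17.

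Among 18 measured further nuclear genes, ROS1 and CMT2 had the largest absolute means. ROS1, the DNA demethylase whose transcription is known to need methylation of its own promoter, stood at -0.51, -0.86 and -0.52, below 0 on each array (-0.63 ± 0.19, limma adjusted p = 0.0792). Its 2 probes disagreed from array to array, with 0.10, -1.25 and -0.07 for one and -1.12, -0.46 and -0.98 for the other. CMT2, which maintains CHH methylation in heterochromatin, stood at -0.79, -0.22 and -0.74 (-0.58 ± 0.32, limma adjusted p = 0.132). NRPD4, a subunit shared by polymerases IV and V, was the highest at 0.53 ± 0.27, and SHH1, DRM3 and MORC6 are not analysed here.

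**Figure D4:**
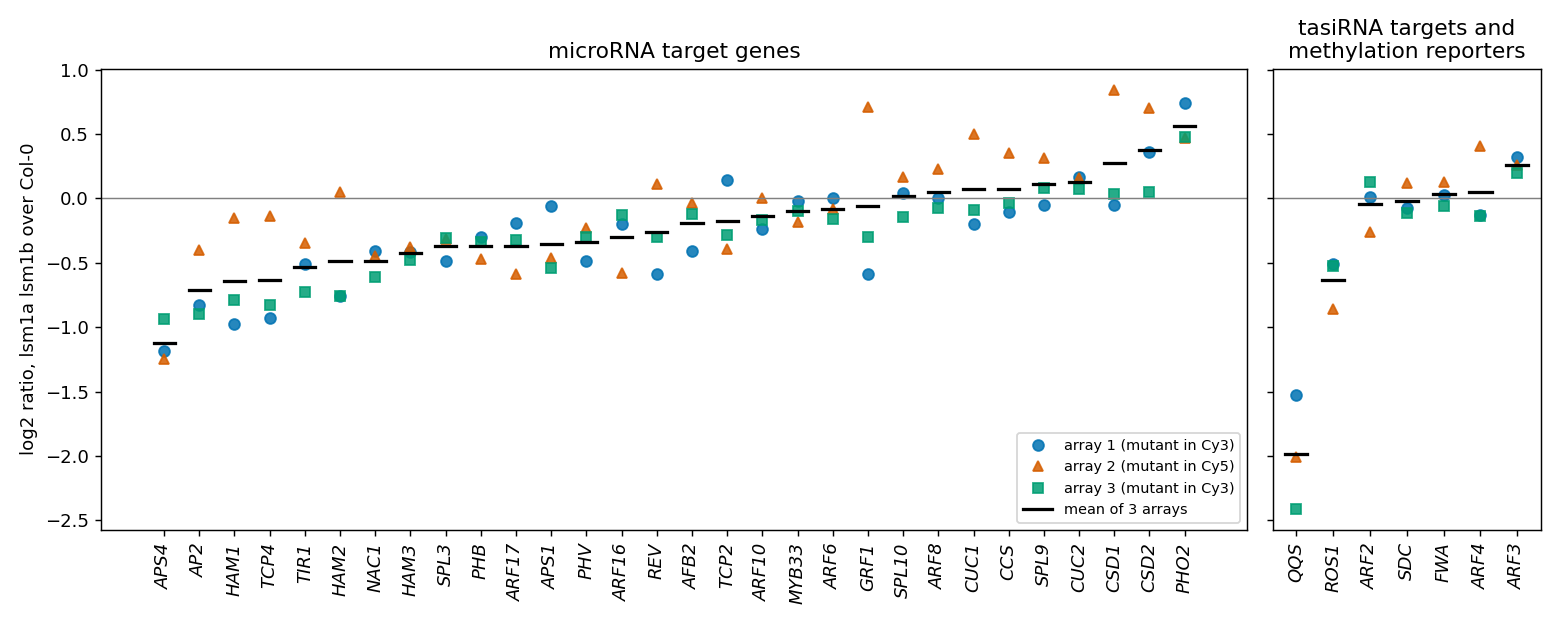
Log2 ratio (lsm1a lsm1b over Col-0) on each array for 30 microRNA target genes, ordered by mean, and for 7 targets of trans-acting small RNAs or genes sensitive to DNA methylation. Symbols are arrays and black bars are means; APS4 has a mean of -1.12, PHO2 one of 0.56 and QQS one of -1.98.

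Transcripts that the microRNA branch is known to repress lay more often below 0 than above it. Of 30 measured target genes, 21 had a mean below 0 (70%, against 48.2% of all genes). On all 3 arrays, 15 were below 0 (50% against 18%) and 3 were above 0 (10% against 19.7%). Their medians were -0.22, -0.11 and -0.29 on arrays 1, 2 and 3, against 0.01, 0.01 and 0.00 over all genes. Unadjusted p was under 0.05 for 12 lower targets (40%, against 9.48% of all genes) and 1 higher target (3.33% against 10.6%). After adjustment over all genes 1 of the 30 passed (3.33%, against 1.21% of all genes). These differences were not tested.

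The target that passed was APS4, an ATP sulfurylase gene of sulfate assimilation, which fell. It stood at -1.19, -1.25 and -0.94 (mean -1.12 ± 0.16, limma adjusted p = 0.0412), and the call was lost without any 1 array and with the dye term (0.0706). Its 5 probes formed 2 groups, 3 between -2.04 and -1.77 and 2 at 0.00 and -0.01, so the mean stands for neither group. Among targets that did not pass, the flowering repressor gene AP2 stood at -0.71 ± 0.27 (limma adjusted p = 0.0858) and the auxin receptor gene TIR1 at -0.53 ± 0.19. HAM1 and TCP4 had lower means than TIR1 (-0.64 and -0.63) but lay nearer 0 than TIR1 on array 2. On arrays 1, 2 and 3, HAM1 stood at -0.975, -0.15 and -0.79, and TCP4 at -0.93, -0.135 and -0.83. PHO2, a phosphate-homeostasis gene, was the highest of the targets at 0.56 ± 0.15 (limma adjusted p = 0.0802). AP2 and TIR1 were below 0 and PHO2 above 0 on each array.

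Targets of trans-acting small RNAs, which depend on SGS3 and RDR6, did not pass the test, which 1.21% of all genes passed. ARF3, an auxin response factor gene, stood at 0.32, 0.26 and 0.20 (0.26 ± 0.06, limma adjusted p = 0.195), above 0 on each array. ARF4 had a mean of 0.05 ± 0.31 and ARF2 one of -0.04 ± 0.20. The precursor genes TAS1A, TAS1B, TAS1C, TAS2, TAS3 and TAS4 are not analysed here.

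Genes known to respond to loss of DNA methylation gave different values from each other. SDC and FWA, which are silenced by promoter methylation, had means of -0.02 ± 0.13 and 0.03 ± 0.10. QQS, an orphan gene of starch metabolism whose expression varies with methylation of nearby repeats, fell. It stood at -1.53, -2.01 and -2.41 (mean -1.98 ± 0.44, 3.95-fold lower, limma adjusted p = 0.0412), low on every array and measured by 1 probe. The call was lost without any 1 array, with the dye term (limma adjusted p = 0.0775) and with equal scaling (0.0669). A probe that hybridises less well to the transcript of 1 genotype would give a ratio that cannot be told apart from a lower level.

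**Figure D5:**
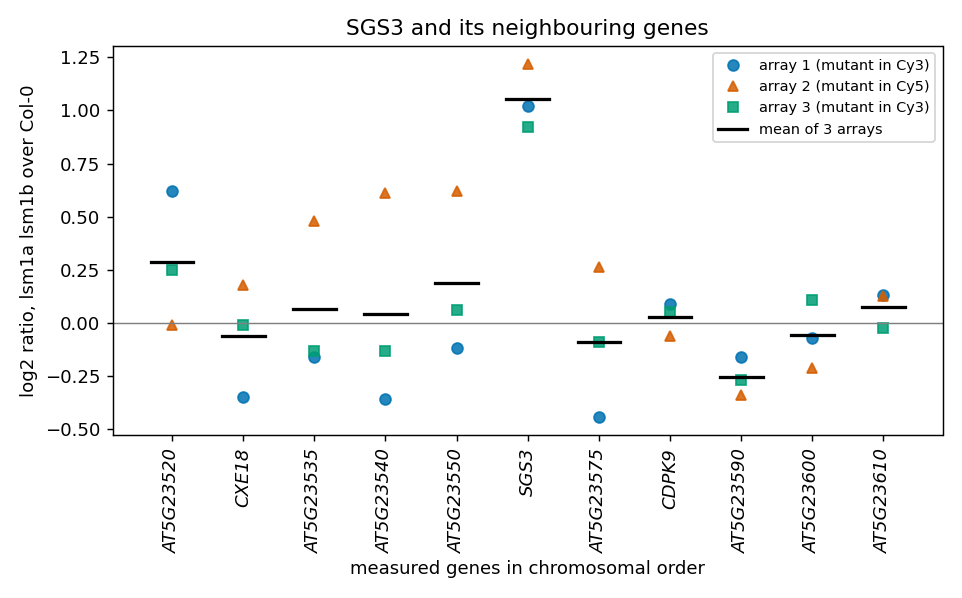
Log2 ratio (lsm1a lsm1b over Col-0) on each array for SGS3 and the 5 measured genes on either side of it in chromosomal order. Symbols are arrays and black bars are means; neighbours have means between -0.26 and 0.29 and SGS3 has 1.05.

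The neighbours of SGS3 on chromosome 5 did not pass the test, which 1.21% of all genes passed. The 10 nearest measured genes had means between -0.26 and 0.29. For 1 of them, AT5G23590, the unadjusted p was under 0.05, as it was for 20.1% of all genes. DCL4 and AGO9, the members closest to it on that chromosome, lie 243 and 174 measured genes away. None of the 10 neighbours of either passed, although CAM6, a calmodulin gene near AGO9, stood at 1.36, 0.84 and 1.03 (1.08 ± 0.26, limma adjusted p = 0.0516). Unadjusted p was under 0.05 for 3 of the 10 neighbours of AGO9, CAM6 included, and for 0 of those of DCL4.

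Markers of other tissues and of dividing cells gave 0 calls in limma, against 1.21% of all genes. An unadjusted p under 0.05 was found for 0 flower, 0 seed, 1 root and 2 dividing-cell markers, against 20.1% of all genes. The means of 6 flower markers lay between -0.05 and 0.30, of 6 seed markers between -0.13 and 0.08 and of 6 measured markers of dividing cells between -0.38 and 0.61. Those of 5 genes listed as root markers lay between -0.59 and 0.15. The -0.59 and the unadjusted p under 0.05 were those of GL2, which does not mark roots alone. Without GL2 the root means lay between -0.13 and 0.15. Flower markers had a median of 0.40 on array 2, against 0.03 and -0.03 on arrays 1 and 3. The medians of the dividing-cell markers were -0.06, 0.16 and 0.33 on arrays 1, 2 and 3. Their part in the values of AGO5, AGO9, MET1 and CMT3, which are known to be expressed in such tissues or cells, was not tested. The deposited ratios hold no levels, so neither the tissue nor the presence of a transcript could be checked.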

How the data were processed

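Two-colour arrays compared lsm1a lsm1b with Col-0 rosette RNA, 1 array per biological replicate. The authors deposited normalized log2 ratios, 1 per probe and array, made with limma per the submitters' processing notes. Background correction, normalization within arrays, log base and sign were not given in the sources used here. A base of 2 was taken from the range (-6.76 to 5.87), and medians lay between -0.01 and 0.01. Array 2 correlated above 0 with arrays 1 and 3 over genes (r = 0.427 and 0.452, against 0.745 between arrays 1 and 3; Spearman's rho 0.157 and 0.226, against 0.696), so the ratios had been turned one way. They were read as mutant over Col-0, since the labels put the mutant in channel 1 of each sample and call Col-0 the control. LSM1A and LSM1B are not analysed here, so the labels were not checked on the disrupted genes. Dim probes could not be told from bright ones without intensities. Precision is limited by having 3 arrays.

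Of 43601 probes, platform annotation, which can be old, gave 34342 a single symbol, 0 several and 9259 none. Through the RefSeq table of TAIR10.1, names came from the accession for 32238 and from the symbol for 2035, while 44 contradictory probes stayed unnamed and 25 had no match. Probes of a gene were averaged per array, and 7304 of 24656 genes had several probes. The test of each gene's mean against 0 used lmFit and eBayes of limma 3.58.1 under R 4.3.3 (two-sided, Benjamini-Hochberg over all genes, threshold 0.05). The fit was also run on simulated data with noise independent between arrays, which cannot show how dye or array effects bear on the calls. Intervals are limma's 95% intervals. Coordinates are left out because the array's build is not stated.

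The members, branches and lists were chosen with earlier results of these data known, and branch medians carry no test. Members with an unadjusted p under 0.05 and the same sign on all arrays were to be given on each array, others by mean, and of each other list the called genes or the largest absolute means. Genes named beyond this rule, such as RDR6, SDE5, DCL3, CMT3, ARF2, CBP20, NRPD4, AP2, TIR1, HAM1, TCP4, PHO2, GL2 and CAM6, were chosen after their values were seen. The alternatives were leaving out each array, a dye term, the median of the probes, each probe alone, equal scaling of the arrays, robust eBayes and narrower branches.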

Additional observations from a re-analysis of the deposited data

How the results depend on the processing

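Without array 1, 2 or 3, and with a dye term, 0 genes and 0 members passed in limma, while 2805, 7326, 2543 and 6388 genes had an unadjusted p under 0.05. Equal scaling of the arrays left 76 genes and 0 members, and robust eBayes left 180 genes, all among the 298. The fits without an array or with a dye term have fewer arrays or residual degrees of freedom. The cause of the lower counts was not tested. SGS3 had adjusted p of 0.0706 with the dye term and 0.0514 with equal scaling, and passed with robust eBayes (0.0453), with the median of the probes (0.0418) and with each probe alone (0.0496). Its mean lay between 0.97 and 1.12 in every fit run. QQS likewise lost its call with the dye term (0.0775) and equal scaling (0.0669), APS4 with the dye term (0.0706), and ICS1 with both and with robust eBayes (0.0502). The median of the probes put APS4 at -1.74.

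The microRNA branch median ranged from -0.23 to -0.075 without single arrays and was -0.13 with the dye term. The nuclear median was 0.175 over its members with several probes, which is NRPE1 alone, an alternative added after seeing the data. Without single arrays the post-transcriptional median ranged from 0.015 to 0.083 and the nuclear from -0.048 to 0.058. Without single arrays, with the dye term or with equal scaling, 11 uncalled members changed the sign of their mean, among them AGO1 (-0.18, and 0.05 without array 1) and CMT3 (0.05, and -0.36 without array 2). Of members with several probes, DCL2 (0.02), NRPE1 (0.18) and HYL1 (-0.03) each had 1 probe mean of opposite sign, at -0.09, -0.10 and 0.13. Each ratio already compares both genotypes within an array, so the test against 0 is paired, and no further pairing was run. A dim-probe filter and a slide or scan block were not run, since the values used hold ratios only.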
